A study of Mus musculus with 2 samples.

Results

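Small leucine-rich proteoglycans and elastic matrix genes were described in the adrenal gland of aged female mice. The set holds 10 genes chosen by name, Dcn, Lum, Bgn, Fmod, Ogn, Prelp, Fbn1, Eln, Fn1 and Sparc, out of 55536 genes listed in the gene tables, and each symbol matched 1 row. Total RNA-seq was done on the adrenal gland of 2 female mice of strain B6CASTF1/J, the F1 cross of C57BL/6J and CAST/EiJ, aged 18 to 20 months, with no treatment named. Each animal gave 1 library from 300 ng of RNA with ERCC spike-ins, and the libraries had 35769717 and 35135703 expected counts in animals 1 and 2. The labels give both libraries the same donor identifier and 1 label field of animal 2 repeats the name of animal 1, while the other fields name separate females and tissue samples. There is 1 group, so levels are described, no condition was compared and no p-value is given.

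The proteoglycans of this set are secreted proteins built mostly of leucine-rich repeats that bind collagen fibrils and set how thick and how regularly spaced they become. Decorin (Dcn) and biglycan (Bgn) are the class I members, which carry chondroitin or dermatan sulfate chains and also bind TGF-beta. Lumican (Lum), fibromodulin (Fmod) and prolargin (Prelp) are class II members, of which the first pair can carry keratan sulfate, and osteoglycin (Ogn) belongs to class III. Elastic fibres have a core of elastin (Eln) laid down on microfibrils of fibrillin-1 (Fbn1), fibronectin (Fn1) forms an early scaffold that integrins assemble, and Sparc encodes a collagen-binding matricellular protein. In the adrenal gland such matrix lies in the connective tissue capsule, around vessels and between the cords of steroid-making cells.

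Several forms of Fn1 and Sparc messenger RNA differ by short coding stretches, and the sequences at those exon junctions are shown to make clear what the forms described further on keep or skip. Fn1 has 2 cassette exons that its long transcripts keep or skip, each coding for a fibronectin type III repeat. The exon of 273 bases known as EDB (extra domain B) lies at chr1:71613763-71614035 and that of 270 bases known as EDA (extra domain A) at chr1:71603660-71603929, both on the minus strand of mm10. Letters of the cassette exon are in capitals and flanking exons in lower case, 5′ to 3′, from the GENCODE M21 transcripts ENSMUST00000055226.12 (both kept) and ENSMUST00000186129.6 (both skipped).
Fn1 EDB entry: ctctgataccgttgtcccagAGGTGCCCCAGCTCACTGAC
Fn1 EDB exit: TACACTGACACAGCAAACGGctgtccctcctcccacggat
Fn1 EDB skipped: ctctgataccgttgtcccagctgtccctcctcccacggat
Fn1 EDA entry: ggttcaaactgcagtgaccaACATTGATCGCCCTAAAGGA
Fn1 EDA exit: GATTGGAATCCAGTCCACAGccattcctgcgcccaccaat
Fn1 EDA skipped: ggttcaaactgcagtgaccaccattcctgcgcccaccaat

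The main Sparc transcripts differ in the length of exon 1 and by 3 bases where exon 2 meets exon 3. Sparc-201 has an exon 3 of 60 bases at chr11:55407220-55407279 and Sparc-202 one of 57 bases at chr11:55407220-55407276, both in the coding sequence on the minus strand. The extra bases of Sparc-201 are in capitals.
Sparc-201: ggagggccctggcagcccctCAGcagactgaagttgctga
Sparc-202: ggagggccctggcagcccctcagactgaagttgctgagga

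All 10 genes were detected, meaning that each animal had 1 TPM or more (TPM is abundance per transcript length, scaled to a fixed total). Their sum was 726 TPM in animal 1 and 839 in animal 2, with a mean of 782 ± 79.8 TPM (SD, n = 2, as for each mean that follows), or 0.0782% of all TPM. Sparc made up 75.5% of that sum in animal 1 and 78.0% in animal 2. The member with the fewest reads, Fmod, had 207 and 216 expected counts.

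Sparc, the matricellular gene (ENSMUSG00000018593.13, chromosome 11, 55394500 to 55423183), stood at 548 TPM in animal 1 and 654 in animal 2, from 43805 and 47491 expected counts. Its mean of 601 ± 75.2 TPM (SD, n = 2) placed it at rank 78 among 12552 genes detected in both libraries. Sparc exceeded Dcn by 3.33 on the log2 TPM scale in animal 1 and by 3.70 in animal 2.

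Among the proteoglycans the class I genes stood highest. Bgn (ENSMUSG00000031375.17, chromosome X, 73483602 to 73495933) stood at 70.7 TPM in animal 1 and 88.1 in animal 2, a mean of 79.4 ± 12.3 TPM. Dcn (ENSMUSG00000019929.16, chromosome 10, 97479609 to 97518143) had 54.3 and 50.2 TPM, a mean of 52.3 ± 2.93 TPM. Together they made up 76.5% of the summed TPM of the 6 proteoglycans in animal 1 and 80.3% in animal 2. The ratio of Dcn to Bgn was 0.768 in animal 1 and 0.570 in animal 2, so biglycan transcripts exceeded decorin transcripts in both glands. It was 0.791 and 0.593 in a second quantification of the same libraries that the authors deposited. The coding transcript Bgn-201 alone had 57.6 and 72.3 TPM, nearer to Dcn in both animals than all Bgn transcripts together.

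Ogn and Prelp formed the next level. Ogn, of class III (ENSMUSG00000021390.6, chromosome 13, 49608046 to 49624501), had 15.45 and 14.5 TPM, a mean of 15.0 ± 0.665 TPM. Prelp, a class II gene whose protein also binds basement membrane heparan sulfate (ENSMUSG00000041577.5, chromosome 1, 133910304 to 133921414), had 15.6 and 12.99 TPM, a mean of 14.3 ± 1.85 TPM. Their order differed between the animals, and the gap between their means was smaller than the sum of their SDs. Dcn stood at a multiple of Ogn that was close in the 2 animals, 3.52-fold in animal 1 and 3.46-fold in animal 2. The second quantification put this multiple at 3.92-fold and 3.87-fold.

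The other class II genes were low. Lum (ENSMUSG00000036446.5, chromosome 10, 97565128 to 97572703) had 5.55 and 4.37 TPM, a mean of 4.96 ± 0.834 TPM, and Dcn exceeded it 9.79-fold and 11.5-fold. Fmod (ENSMUSG00000041559.7, chromosome 1, 134037254 to 134048277) had 1.76 and 2.01 TPM, a mean of 1.89 ± 0.177 TPM, the lowest of the 10 genes. Lum exceeded Fmod 3.15-fold in animal 1 and 2.17-fold in animal 2, and it reached 0.356 and 0.336 of the level of Prelp.

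The scaffold and fibre genes were also low. Fn1 (ENSMUSG00000026193.15, chromosome 1, 71585520 to 71653200) had 7.31 and 5.74 TPM, a mean of 6.53 ± 1.11 TPM. Fbn1 (ENSMUSG00000027204.13, chromosome 2, 125300594 to 125507993) had 3.56 and 3.85 TPM, a mean of 3.71 ± 0.205 TPM. Eln (ENSMUSG00000029675.12, chromosome 5, 134702593 to 134747323) had 3.69 and 2.71 TPM, a mean of 3.20 ± 0.693 TPM. Fn1 was above Fbn1 2.05-fold and 1.49-fold. The level of Fbn1 over that of Eln was 0.965 in animal 1 and 1.42 in animal 2. Their order per length was thus not settled by gene totals. By coding transcript Fbn1 was the higher gene in both animals. Its leading coding transcript had 3.31 and 3.16 TPM, against 2.60 and 1.49 TPM for the coding transcript of Eln. The second quantification gave 5.82 and 5.12 TPM for Fbn1 against 4.62 and 2.84 TPM for Eln. By expected counts Fbn1 exceeded Eln 2.62-fold and 3.75-fold, with effective lengths in animal 1 of 9175 bases for Fbn1 and 3381 bases for Eln. In the order of mean TPM, the gaps between Ogn and Prelp, Fn1 and Lum, and Fbn1 and Eln were smaller than the sum of their SDs, and the other 6 gaps between neighbours were larger.

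**Figure D1:**
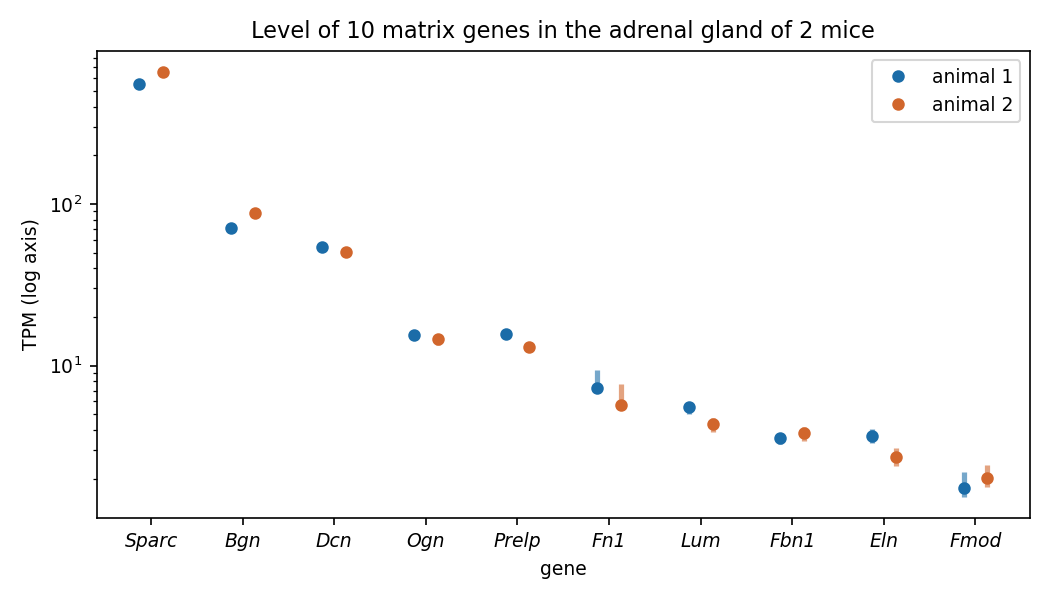
TPM of the 10 genes in animal 1 and animal 2 on a log axis, ordered by mean, with vertical bars for the deposited interval of each TPM. Sparc has a mean of 601 TPM, Bgn and Dcn between 50.2 and 88.1 TPM, and the other genes at or below 15.6 TPM.

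The 2 glands were compared gene by gene. The log2 ratio of animal 2 over animal 1 was taken from expected counts scaled by TMM, a method that centres the bulk of genes, with a 95% interval that covers counting error only. None of the 10 genes was at least 2-fold apart with deposited TPM intervals that did not overlap. Of 13570 genes whose counts averaged 50 or more, 3.47% met that rule, 1.75% lower and 1.72% higher in animal 2. At 1.5-fold none met it either, against 5.02% of genes lower and 4.68% higher in animal 2. That count was taken under the main scaling only, where Eln lay at the edge, at 1.499-fold. With no filter before TMM its log2 ratio was -0.5854, just past 1.5-fold. With 10 genes, a count of 0 is near these background shares. The spread between the animals over 17024 genes averaging 10 or more counts was 0.242, as a coefficient of variation from edgeR's common dispersion. It contains differences in handling and library preparation, since each animal gave 1 library.

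Sparc and Bgn were higher in animal 2 under every scaling tried. Bgn had a log2 ratio of 0.27 (0.22 to 0.33), or 1.21-fold, and Sparc 0.20 (0.18 to 0.22), or 1.15-fold. Their deposited TPM intervals did not overlap between the animals, as for 20.7% of all genes in that direction. Fmod had a ratio of 0.15 with an interval of -0.13 to 0.42, so a difference was not detectable at its depth.

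Eln, Fn1, Lum and Prelp were lower in animal 2 under every scaling tried. Eln had a log2 ratio of -0.58 (-0.79 to -0.38), just under 1.5-fold. That was the largest difference among the 10 genes under TMM, whereas under spike-in scaling Eln was at -0.36 and Bgn, at 0.49, and Sparc, at 0.42, lay further from 0. Fn1 stood at -0.41 (-0.52 to -0.31), Lum at -0.39 (-0.59 to -0.20) and Prelp at -0.33 (-0.42 to -0.24). With Dcn, at -0.16 (-0.23 to -0.09), Eln, Lum and Prelp made up the 4 of 10 genes whose TPM intervals lay wholly below those of animal 1, as for 12.3% of all genes. The intervals of Fn1 overlapped.

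Dcn, Ogn and Fbn1 had no direction that held under all scalings. Under TMM, Ogn was at -0.14 (-0.25 to -0.03) and Fbn1 at -0.07 (-0.18 to 0.05). When the libraries were scaled by spike-in totals, Dcn was at 0.06, Ogn at 0.08 and Fbn1 at 0.15. By TPM, Fbn1 was slightly higher in animal 2, where its effective length was 8381 bases. Counted together, TMM put 7 of 10 genes lower in animal 2, beside 51.6% of all genes, whereas spike-in scaling put 4 of 10 lower, beside 26.6%. The median log2 ratio of the 10 genes was -0.15 under TMM, while that of the 17024 genes whose counts averaged 10 or more was -0.01. Spike-in scaling moved these medians to 0.069 and 0.21.

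**Figure D2:**
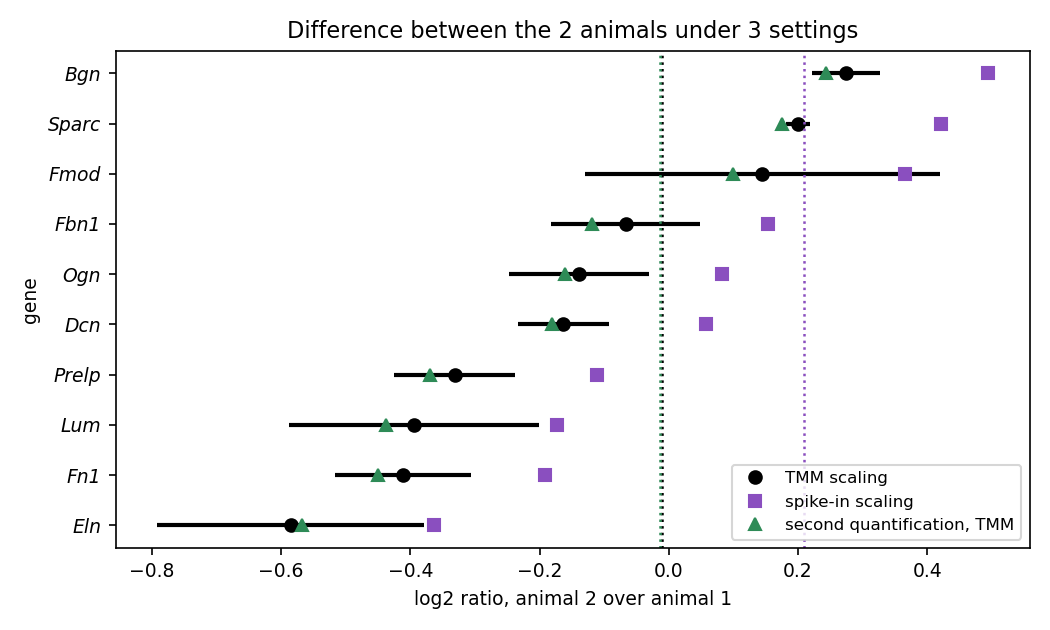
Log2 ratio of animal 2 over animal 1 for each gene under TMM scaling (circles, with 95% counting intervals). Squares show spike-in scaling and triangles the second quantification. Dotted lines mark the median under each of all genes whose counts averaged 10 or more. Bgn, Sparc and Fmod lie above 0 and Eln, Fn1, Lum and Prelp below 0 in all 3 settings, and spike-in scaling shifts every gene to the right.

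Coding transcripts held most of the TPM of each of these genes, and the share of other transcripts was highest for elastin in the table with expected counts. Transcripts annotated as non-coding, such as those with retained introns or subject to nonsense-mediated decay, took 29.7% of Eln TPM in animal 1 and 45.0% in animal 2, and 30.7% and 37.5% in the second quantification. The coding transcript of Eln, with 37 exons, had 2.60 and 1.49 TPM. For Fbn1, whose leading transcript has 66 exons, the non-coding share was 7.28% and 17.4%, against 10.5% and 13.7% in the second quantification. For Bgn it was 18.5% and 17.9%, against 16.6% and 15.9%. Fn1 had 11.5% and 11.2%, against 32.5% and 23.1% in the second quantification, and Prelp 0 and 1.77%, against 15.4% and 16.2%. Part of these shares for Fn1, Prelp and Bgn came from short transcripts with few reads. In animal 1 of the second quantification, Fn1-204 (495 bases) had 4.47 TPM from 20.1 estimated counts. Prelp-202 (823 bases) had 4.98 TPM from 62.6. In the table with expected counts, Bgn-208 (548 bases) had 11.7 TPM from 204 counts in animal 1. Dcn and Sparc were below 2% in both animals and both quantifications, while Lum, Ogn and Fmod have coding transcripts only in the annotation.

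Fibronectin was mostly of the form that skips both cassette exons. Among the 7 long coding Fn1 transcripts, those with EDA took 16.1% of TPM in animal 1 and 8.65% in animal 2, and the second quantification gave 17.7% and 9.47%. The transcript with EDB took 9.52% and 8.65%, and 7.12% and 9.47% in the second quantification. As background, liver secretes a form that skips both exons into plasma, and forms that keep them are made by cells of tissues. Which cells made the Fn1 transcripts of these glands was not tested. Of the expected counts of long coding transcripts, 277 of 1628 in animal 1 and 106 of 1121 in animal 2 were assigned to transcripts with EDA, and these count reads along the whole transcript, not across the junctions. In animal 2 the transcript that keeps both exons was the only long one with EDA above 0 TPM in the table with expected counts.

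The forms of Sparc and Dcn were not settled by the estimates. Sparc-202 took 71.0% and 72.8% of Sparc TPM in the table with expected counts, but 36.4% and 41.7% in the second quantification, where Sparc-201 led with 55.9% and 53.6%. These transcripts also differ in the length of exon 1, with 293 bases in Sparc-201 and 111 bases in Sparc-202. Dcn-201 and Dcn-202 share all exons but the first, which starts at 97479609 in Dcn-201 and 97482367 in Dcn-202 on chromosome 10. The table with expected counts gave Dcn-201 65.8% and 76.3%. The second quantification gave both forms identical estimated counts, 1809 in animal 1 and 1548 in animal 2, or 49.9% and 49.8% each. Both transcripts are 1758 bases long, and such equal estimates do not separate the forms.

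**Figure D3:**
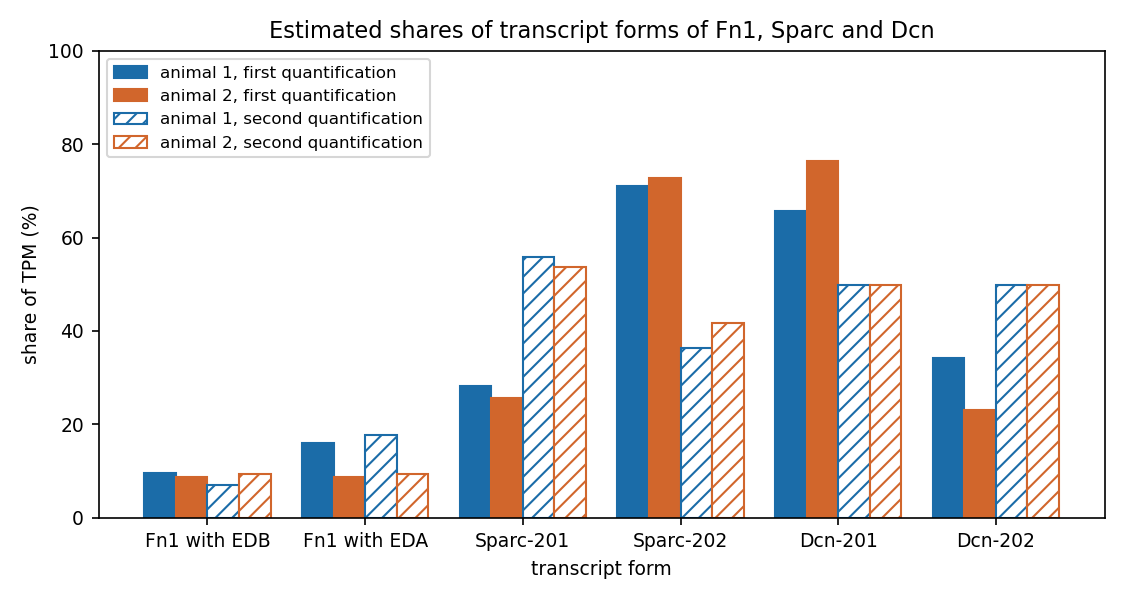
Share of TPM (%) of each form, for Fn1 over its 7 long coding transcripts and for Sparc and Dcn over all transcripts of the gene, in both animals (colours) and both quantifications (filled and hatched bars). The EDA bars differ between the animals in both quantifications, while the Sparc and Dcn bars differ between quantifications more than between animals.

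Of the 10 genes, 5 lie in clusters of related genes, and within each cluster the levels were very unequal. On chromosome 10, Dcn and Lum lie beside Kera and Epyc, which code for keratocan and epiphycan of cornea and cartilage. Kera had 0 expected counts in both animals, which allows up to 3 counts, or 0.0839 and 0.0854 CPM, and Epyc had 6 and 2 counts. On chromosome 1, Optc, coding for opticin of the eye, lies between 133897199 and 133907999 beside Prelp and had 0.29 and 0.31 TPM. On chromosome 13, Ogn lies beside Ecm2 (1.65 and 1.88 TPM), Omd (1.19 and 1.90 TPM) and Aspn (0.77 and 0.85 TPM), which code for a matrix protein related to this family, osteomodulin and asporin. The member with the highest level in each cluster was Dcn on chromosome 10, Prelp on chromosome 1 and Ogn on chromosome 13.

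Of the other 11 genes of the small leucine-rich family, 4 were detected. Tsku, coding for tsukushi, had 4.69 and 5.05 TPM, Podn, coding for podocan, 2.35 and 2.15 TPM, and Ecm2 and Omd the values above. Chad, coding for the cartilage protein chondroadherin, had 0 counts in both. None met the 2-fold rule, which needs an average of 50 counts and so could not be met by Optc or Nyx, for instance. Over the 7 whose counts averaged 10 or more, the median log2 ratio was 0.11, and 0.33 under spike-in scaling.

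The genes that assemble elastic fibres were detected in 18 of 20 cases, and some exceeded Eln and Fbn1 themselves. Ltbp3, which binds latent TGF-beta, had 65.5 and 76.0 TPM, its relative Ltbp4, which also aids elastin assembly, 26.3 and 27.4 TPM, and Efemp1, coding for fibulin-3, 14.5 and 24.9 TPM. Under TMM 13 of the 20 were lower and 7 higher in animal 2, with a median log2 ratio of -0.36. Spike-in scaling gave the same split with a median of -0.14. Where deposited TPM intervals did not overlap, the balance was the other way, with 2 genes lower and 5 higher in animal 2. The summed TPM of the list was 196 in animal 1 and 215 in animal 2. Loxl4, a lysyl oxidase that crosslinks collagen and elastin, was the member of this list that met the 2-fold rule, with 1.05 and 3.47 TPM (a fold of 3.16 in favour of animal 2).

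Fibronectin receptors and partners gave 8 detected genes of 12. The integrin subunits Itgb1 (69.8 and 79.5 TPM) and Itgav (36.6 and 34.2 TPM) stood above their ligand Fn1 per length, and Thbs1, coding for thrombospondin-1, had 13.7 and 8.36 TPM. Tnc, coding for tenascin-C, met the 2-fold rule with 4.32 and 1.58 TPM (a fold of 2.46 in favour of animal 1). Over 11 genes the median log2 ratio was -0.06, and 0.16 under spike-in scaling.

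All 7 relatives of Sparc were detected, far below Sparc. Smoc1 had 54.2 and 39.4 TPM, Spock2 16.7 and 12.6 TPM and Sparcl1, coding for hevin, 16.4 and 10.7 TPM. Sparc exceeded Sparcl1 33.3-fold in animal 1 and 61.3-fold in animal 2. Under TMM 6 of the 7 were lower in animal 2, with a median of -0.43, or 5 of 7 with a median of -0.21 under spike-in scaling, whereas Sparc was higher in animal 2. None of these relatives met the 2-fold rule.

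Enzymes that build the glycosaminoglycan chains of the proteoglycans were detected in 17 of 22 cases. B3gat3, which completes the linker to the core protein, had 20.4 and 19.8 TPM, the xylose kinase Fam20b 16.9 and 17.5 TPM, and the chondroitin polymerising factor Chpf 15.6 and 17.8 TPM. Their median log2 ratio was 0.03, and 0.25 under spike-in scaling. None met the 2-fold rule, which those averaging under 50 counts could not meet. Chst5, a sulfotransferase, had 0 counts in both animals.

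Markers of the cells that may contribute these transcripts were read in the same libraries, and fewer cells of a type cannot be told apart from less RNA per cell. Markers of the cortex (Hsd3b1, Cyp21a1 and Star led 6) summed to 15553 and 20001 TPM, with 4 higher in animal 2, and those of chromaffin cells (Chga, Chgb and Th led 6) to 1803 and 1522 TPM, of which TMM put all 6 lower in animal 2 and spike-in scaling put 4 lower. Of 11 markers of capsule and fibroblasts, 9 were lower in animal 2 under TMM and 5 with spike-ins. They summed to 272 and 260 TPM, led by Gsn (119 and 109.8 TPM), Col6a1 (45.6 and 47.8 TPM) and Nr2f2 (29.7 and 37.2 TPM), with a median log2 ratio of -0.16 beside -0.15 for the 10 matrix genes. Of 9 smooth muscle and pericyte markers, 8 were lower (6 with spike-ins), with sums of 106 and 64.0 TPM. Tagln had 51.9 and 28.0 TPM, Acta2 25.2 and 12.5 TPM, and Des, which met the 2-fold rule, 10.1 and 4.80 TPM. Endothelial markers were higher in animal 2 in 6 of 8 cases (8 with spike-ins), with sums of 172 and 192 TPM, led by Plvap, Egfl7 and Emcn.

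Most markers of fat, skeletal muscle, liver and glia were lower in animal 2, while kidney markers were low in both animals. All 8 adipocyte markers were lower in animal 2 under both scalings, with sums of 3299 and 2090 TPM, led by Fabp4 and Cfd, and Ucp1 (743 and 298 TPM) met the 2-fold rule. All 9 skeletal muscle markers met it, with sums of 185 and 0.55 TPM. Acta1 had 63.2 and 0.08 TPM, Tnnt3 28.1 and 0.25 TPM, Mylpf 16.7 and 0.20 TPM, Myh1 14.9 and 0.01 TPM and Ttn 5.98 and 0.01 TPM, while Ckm, Atp2a1, Myh2 and Myh4 had 0 counts in animal 2. The 6 liver markers, of a tissue that secretes fibronectin, were all lower in animal 2, with sums of 17.95 and 7.24 TPM, led by Alb (2-fold rule met), Apoc3 and Apoa1. All 6 glia markers were lower under TMM (5 with spike-ins), with sums of 13.7 and 9.27 TPM, led by S100b and Mbp. Of 5 kidney markers, Slc12a1 and Nphs1 had 0 counts in both animals and Slc34a1, Aqp2 and Umod were low, with sums of 1.10 and 1.33 TPM. The part of these cells in the lower values of Eln, Fn1, Lum and Prelp in animal 2 was not tested.

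**Figure D4:**
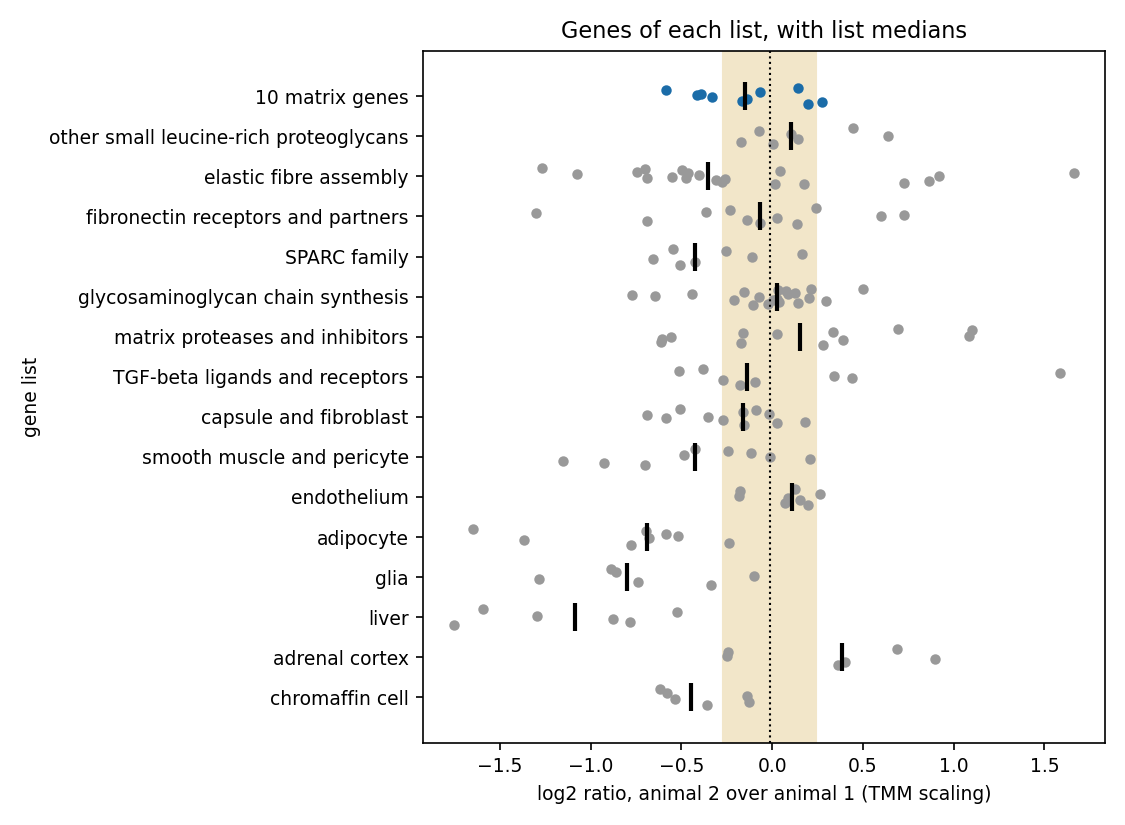
Log2 ratio of animal 2 over animal 1 (TMM scaling) of each gene with a mean count of at least 10, by list. Black bars mark list medians. The dotted line is the median of all genes with that mean count, and shading runs from their 25th to 75th percentile. The 10 matrix genes (blue) lie between -0.58 and 0.27, while the medians of the adipocyte, glia and liver markers lie further to the left, at -0.69, -0.80 and -1.08, and the skeletal muscle and kidney lists are not drawn.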

How the data were processed

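Total RNA-seq of the adrenal gland of 2 animals was used, made with a directional kit per the labels' protocols. Expected counts, TPM, posterior mean TPM and TPM intervals per gene were deposited by the authors. The authors also deposited transcript tables with expected counts, TPM and each transcript's percent of its gene, and a second transcript table with estimated counts and TPM, called the second quantification. The assembly was mm10 with GENCODE M21, per the deposited description. For program names, versions and the interval level, the sources used here give nothing. The TPM of Sparc lay outside its own interval in both animals, which held the posterior mean.

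Entries that name no gene (26249) and 96 spike-ins were left out. Symbols came from the second transcript table, and coordinates, transcript classes and sequences from GENCODE M21. Expected counts were rounded and scaled by TMM (edgeR 4.0.16 in R 4.3.3) on genes averaging 10 or more counts, and 0.5 was added before log2 ratios were taken. Their intervals are Wilson 95% binomial intervals, which cover counting error only. Scaling was tested on simulated data. DESeq2 1.42.0 size factors, spike-in totals, deposited TPM, the second quantification, another pseudocount and other filters were the alternatives. Fn1 cassette exons are exons that some long coding transcripts keep and others skip between the same flanks. Members and lists were chosen with earlier results of these data known. Named were all members, the 3 genes highest in mean TPM of each list, genes that met the 2-fold rule and neighbours of members. A marker gene that this rule names is not reported here. Genes at 0 counts were chosen for naming after their values were seen. The mice carry CAST/EiJ alleles, and the effect of the mm10 reference on their counts was not tested.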

Additional observations from a re-analysis of the deposited data

How the results depend on the processing

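With spike-in totals in place of TMM, the median log2 ratio of the 10 genes changed sign to 0.069 and the number lower in animal 2 became 4. By construction, spike-in scaling moved every gene by the same step. With DESeq2 size factors, another pseudocount, other filters, deposited TPM or the second quantification, the median stayed between -0.17 and -0.10 and the number lower was 6 or 7. No gene was 2-fold apart under any setting. The summed TPM of 782 became 1512 in the second quantification and 2587 when scaled over nuclear protein-coding genes, where the denominator is smaller by construction (the cause in the second quantification was not tested), and lay between 726 and 839 when either animal was left out. Ratios between members moved beyond their SD in 7 of 10 cases without length correction and in 2 of 10 in the second quantification, and none changed sign under either. Leaving out animal 2 turned the log2 ratio of Fbn1 over Eln from 0.23 to -0.052. Ratios between animals have no value with 1 animal left out. No paired analysis was possible because there is 1 group.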

Other observations

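Genes that cut or protect the matrix went both ways between the animals. Of 13 matrix proteases and inhibitors, 10 were detected. Timp3, an inhibitor of metalloproteinases that binds the matrix, had 122 and 154 TPM, Timp2 30.8 and 28.8 TPM and the membrane protease Mmp14 14.5 and 11.6 TPM. Adamts1, a protease that cleaves proteoglycans (4.33 and 8.47 TPM, 2.12-fold), and Timp4 (0.34 and 0.78 TPM, 2.14-fold) were at least 2-fold higher in animal 2. The median log2 ratio of the list was 0.15, and 0.37 with spike-in scaling.

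Of 8 TGF-beta ligands and receptors, 7 were detected. Tgfbr3, the co-receptor betaglycan, had 55.8 and 51.9 TPM, the co-receptor Eng 25.6 and 24.5 TPM and Tgfbr2 22.5 and 18.5 TPM. Bmp4, a related growth factor, was 3.01-fold higher in animal 2, with 1.98 and 4.92 TPM from 73 and 208 expected counts. The median log2 ratio of the list was -0.14 under TMM and 0.08 with spike-in scaling, so its sign depended on the scaling.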
